A study of Mus musculus with 6 samples.

Results

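*Ripply1*, *Palm3*, *Cntn2* and *Gm9696* had at most 19 counts in any library of adipocytes of control mice, and between 253 and 8442 in adipocytes of mice in which an adipocyte Cre deletes the Hippo kinase genes *Lats1* and *Lats2*. The 4 genes were taken from the rows of the count table with 20 or fewer counts in each of the 3 control libraries and 200 or more in each of the 3 knockout libraries. Of 37384 rows, 10 met both limits, namely these 4 and 6 others. The 4 were thus chosen on the counts that separate the genotypes, so their own levels are described without a test.

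The RNA came from adipocytes of inguinal subcutaneous white adipose tissue (scWAT) of male mice at postnatal day 7, freed by collagenase and recovered by flotation. L1L2-AKO mice were Lats1f/fLats2f/f mice with AdipoqCre, in which Cre recombinase is driven constitutively by the *Adipoq* (adiponectin) promoter, and L1L2-FF mice were Lats1f/fLats2f/f littermates without Cre. Both genotypes carried the floxed *Lats1* and *Lats2* alleles, there were 3 libraries per genotype, and each library pooled 4 mice, so that differences between single animals are averaged within it. Total counts ranged from 30548473 to 32107917 per library.

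LATS1 and LATS2 are the kinases at the end of the Hippo cascade. They phosphorylate the coactivators YAP and TAZ, which are then held in the cytoplasm or degraded, and without that phosphorylation YAP and TAZ enter the nucleus and act on target genes mainly through the DNA-binding TEAD factors. The 4 genes have no common textbook function. *Ripply1* encodes a nuclear adaptor that links T-box transcription factors to Groucho/TLE corepressors and is known from the segmentation of somites in the embryo. *Palm3* encodes a member of the paralemmin family of membrane-associated proteins. *Cntn2*, also called TAG-1, encodes a contactin, an immunoglobulin-type adhesion protein held by a lipid anchor on axons and on the glia that myelinate them. *Gm9696* is annotated as a transcribed unprocessed pseudogene and lies among the genes of arylacetamide deacetylase (*Aadac*) and its relatives.

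In mm10, by the GENCODE M21 annotation, *Ripply1* lies on the minus strand at chrX:139779549-139782353 (811 exon bases), *Palm3* on the plus strand at chr8:84021471-84030295 (3612 exon bases), *Cntn2* on the minus strand at chr1:132509427-132543256 (9304 exon bases) and *Gm9696* on the plus strand at chr3:59952309-59973594 (3050 exon bases). They are on 4 different chromosomes. The count limits by themselves make the 4 genes move together between the genotypes, and shared control of them was not tested. The promoters of the 3 protein-coding genes, and of *Cldn2*, the gene next to *Ripply1*, are shown for description. Each runs 5′ to 3′ on the strand of its gene, from 250 bases before to 50 bases after the RefSeq start, in GRCm38.p6, which has the same chromosome sequences as mm10. The windows are chrX:139782304-139782603 (minus strand) for *Ripply1*, chrX:139800558-139800857 (plus strand) for *Cldn2*, chr8:84021224-84021523 (plus strand) for *Palm3* and chr1:132542891-132543190 (minus strand) for *Cntn2*. *Gm9696* had no entry in the promoter table. Capitals mark matches to the TEAD motif GGAATG, the AP-1 motif TGANTCA and the TATA box TATAAA, searched on both strands, so that a GGAATG on the opposite strand reads CATTCC.
*Ripply1*: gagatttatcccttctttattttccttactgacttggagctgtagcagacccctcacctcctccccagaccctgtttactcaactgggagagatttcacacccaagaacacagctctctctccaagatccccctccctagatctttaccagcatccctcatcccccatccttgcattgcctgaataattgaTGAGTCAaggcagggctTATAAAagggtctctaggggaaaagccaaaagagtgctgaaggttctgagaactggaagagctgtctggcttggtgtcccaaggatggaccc
*Cldn2*: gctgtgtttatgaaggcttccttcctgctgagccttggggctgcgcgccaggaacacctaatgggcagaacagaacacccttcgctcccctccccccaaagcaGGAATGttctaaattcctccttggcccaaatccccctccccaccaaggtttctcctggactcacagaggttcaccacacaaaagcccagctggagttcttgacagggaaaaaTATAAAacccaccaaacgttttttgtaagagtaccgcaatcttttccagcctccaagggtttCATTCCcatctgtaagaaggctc
*Palm3*: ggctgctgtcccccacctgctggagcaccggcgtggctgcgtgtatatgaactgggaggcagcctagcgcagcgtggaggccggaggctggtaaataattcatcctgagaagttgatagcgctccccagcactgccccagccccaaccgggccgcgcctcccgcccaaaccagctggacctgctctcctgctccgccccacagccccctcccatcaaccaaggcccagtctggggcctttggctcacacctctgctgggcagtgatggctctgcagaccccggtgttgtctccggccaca
*Cntn2*: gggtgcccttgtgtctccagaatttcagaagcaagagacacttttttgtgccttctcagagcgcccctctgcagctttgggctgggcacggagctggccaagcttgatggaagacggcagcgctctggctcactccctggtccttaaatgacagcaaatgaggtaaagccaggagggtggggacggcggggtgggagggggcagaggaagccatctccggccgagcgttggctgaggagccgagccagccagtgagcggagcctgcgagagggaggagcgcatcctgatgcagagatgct

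The *Ripply1* window held an AP-1 match 59 bases and a TATA box 42 bases before the start, and no GGAATG. The *Cldn2* window held GGAATG 147 bases before the start and its reverse complement at base 28 after it, with a TATA box 35 bases before the start. Neither the *Palm3* nor the *Cntn2* window held any of the 3 motifs. The RefSeq start used for *Cntn2* lies downstream of the GENCODE start, at chr1:132543256, so its window falls wholly within the GENCODE gene. Bases before the GENCODE start of *Cntn2* were therefore not searched. Among 32851 RefSeq promoters of the same length, GGAATG or its reverse complement occurred in 14.7%, the AP-1 motif in 7.81% and the TATA box in 13.6%, so the matches are common ones. GC content was 49.7% for *Ripply1*, 65.7% for *Palm3* and 61.3% for *Cntn2*, against a median of 52.7% over all promoters. The 3 windows thus had no searched motif in common.

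The target genes of the knockout were read first, as a check of the labels. *Lats1* had 2383, 3049 and 2434 counts in the L1L2-FF libraries, in the order of their replicate numbers as throughout, against 1291, 1299 and 1160 under L1L2-AKO, a log2 fold change of -1.04 (SE 0.118, adjusted p = 0.0013 in edgeR's quasi-likelihood test). *Lats2* went the other way, with 2348, 2772 and 2127 counts in L1L2-FF and 3188, 3987 and 3879 in L1L2-AKO (log2 fold change 0.64, SE 0.156, edgeR adjusted p = 0.0278, lost when any of 4 of the 6 libraries was left out, with a largest adjusted p of 0.104). For scWAT adipocytes of the same age, the authors report a reduction of both *Lats1* and *Lats2* mRNA in L1L2-AKO. The rise of the *Lats2* counts differs from that report, and the reason was not tested. Since counts per gene cannot show which part of a transcript was read, the *Lats2* counts do not check the deletion. Every direction below is that of the libraries labelled L1L2-AKO against those labelled L1L2-FF.

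*Ripply1* went from no read at all to one of the most abundant transcripts for its length. It had 0 counts in each L1L2-FF library and 1847, 7549 and 8442 counts in L1L2-AKO replicates 1, 2 and 3. In CPM, the count scaled to a common library size with TMM factors, the L1L2-AKO level was 197 ± 125 (SD, n = 3), which is at least 2069-fold higher than the L1L2-FF level if each L1L2-FF library is set at a floor of 3 counts. All such bounds are on the counts as deposited, in which a read pair may often count as 2, and the floor then stands for fewer fragments and the bounds are lower. Per kilobase of exon, the mean L1L2-AKO level of 242 CPM per kilobase exceeded that of 99.2% of the 15663 expressed genes with a known exon length. None of the 762 stretches of 50 bases in its transcripts occurs in transcripts of another gene, so its reads have no identical source of that length in the annotation. For this gene and those below, a change in the number of cells of a type and a change in RNA per cell cannot be told apart in bulk samples.

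*Palm3* was close to the floor in controls and at a middling level in L1L2-AKO. Its counts were 5, 10 and 6 in L1L2-FF and 545, 970 and 1008 in L1L2-AKO, or 0.221 ± 0.0785 and 27.5 ± 9.80 CPM (SD, n = 3), a 124-fold difference. Per kilobase of exon the mean was above that of 1.296% of expressed genes in L1L2-FF and, at 7.60 CPM per kilobase, above that of 65.0% in L1L2-AKO. It had the smallest spread among the L1L2-AKO libraries of the 4 genes.

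*Cntn2* had the widest spread of the 4 among the L1L2-AKO libraries. Its counts were 6, 6 and 19 in L1L2-FF and 253, 1630 and 1317 in L1L2-AKO, or 0.330 ± 0.245 and 35.1 ± 24.0 CPM (SD, n = 3), a 106-fold difference that ranged from 81.3-fold to 186-fold as single libraries were left out. L1L2-FF replicate 3 lay just under the upper limit of the controls and L1L2-AKO replicate 1 just above the lower limit of the knockouts. Per kilobase of exon *Cntn2* stood at 3.77 CPM in L1L2-AKO, above 48.1% of expressed genes. It is a long transcript, so its read counts overstate its level beside that of the short *Ripply1*.

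*Gm9696*, the only one of the 4 not annotated as protein-coding, had 9, 2 and 15 counts in L1L2-FF and 871, 2219 and 2045 in L1L2-AKO. The levels were 0.277 ± 0.211 and 56.0 ± 25.8 CPM (SD, n = 3), a 202-fold difference, with a range of 145-fold to 321-fold as single libraries were left out. Per kilobase of exon it reached 18.4 CPM, above 83.6% of expressed genes. Of its 3001 stretches of 50 bases, 9.36% also occur in transcripts of another gene, mostly *C130079G13Rik* (8.06%), which the count table lists as *Aadacl2fm1* and which had 0, 0 and 0 counts in L1L2-FF and 1, 5 and 1 in L1L2-AKO. How the authors assigned reads from shared stretches is not given in the sources used here, so the part of the *Gm9696* counts that comes from them is uncertain.

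**Figure D1:**
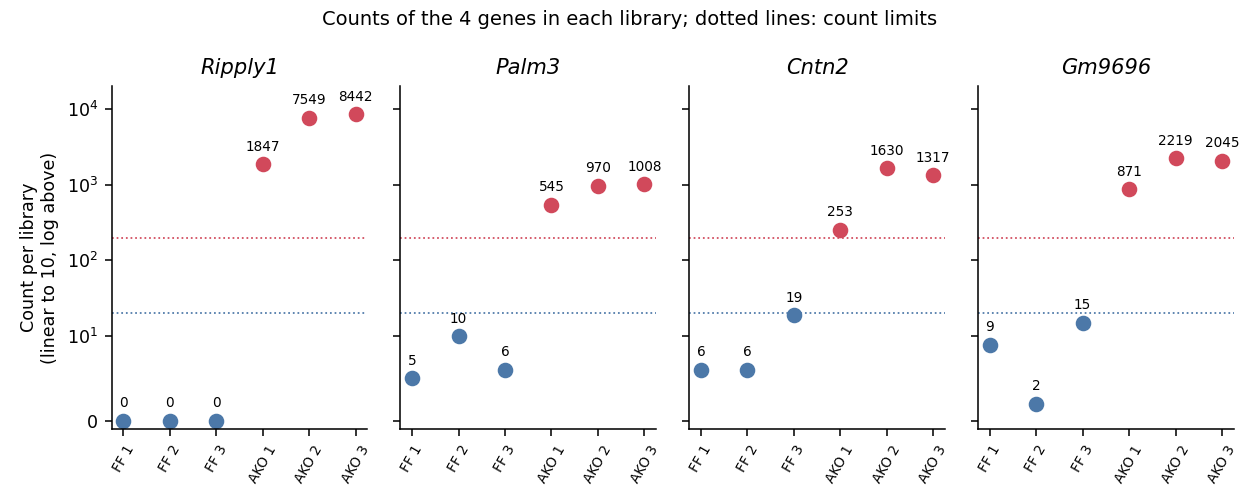
Counts of the 4 genes in each of the 6 libraries (y axis, linear up to 10 and logarithmic above; FF, L1L2-FF; AKO, L1L2-AKO), with dotted lines at the limits of 20 and 200 counts. *Ripply1* is at 0 in all 3 L1L2-FF libraries, and L1L2-AKO replicate 1 is the lowest L1L2-AKO library for each gene.

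The other 6 rows that met the limits were *Ccn5* (9, 10 and 8 counts in L1L2-FF against 3603, 17259 and 16650 in L1L2-AKO), *Gabrb2*, *Igfbp2*, *Folh1*, *S100g* and *Gabrg3*. *Ccn5* encodes a secreted matricellular protein, *Gabrb2* and *Gabrg3* subunits of the GABA-A receptor, *Igfbp2* a binding protein for insulin-like growth factors, *Folh1* a membrane glutamate carboxypeptidase and *S100g* the calcium-binding protein calbindin-D9k. Apart from *Ccn5*, at 1448-fold, their differences ran from 24.9-fold for *Gabrg3* to 92.7-fold for *Gabrb2*, all below the 106-fold of *Cntn2*. Genes lay close to either side of the limits. Just inside were *Gabrg3* and *S100g*, with lowest L1L2-AKO counts of 205 and 206. Just outside on the L1L2-AKO side were *Cldn2* (0 in each L1L2-FF library and 198, 514 and 538 in L1L2-AKO), *Pard6b* (lowest L1L2-AKO count 170) and *Cemip* (169), and just outside on the L1L2-FF side were *Xkr4*, *Hif3a* and *Dclk3*, with highest L1L2-FF counts of 25, 31 and 32. In the opposite direction, with the limits exchanged, only *Gsg1l* and *Gm454* qualified. The number that met the limits changed to 16 without L1L2-AKO replicate 1, and the 4 genes were among them.

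**Figure D2:**
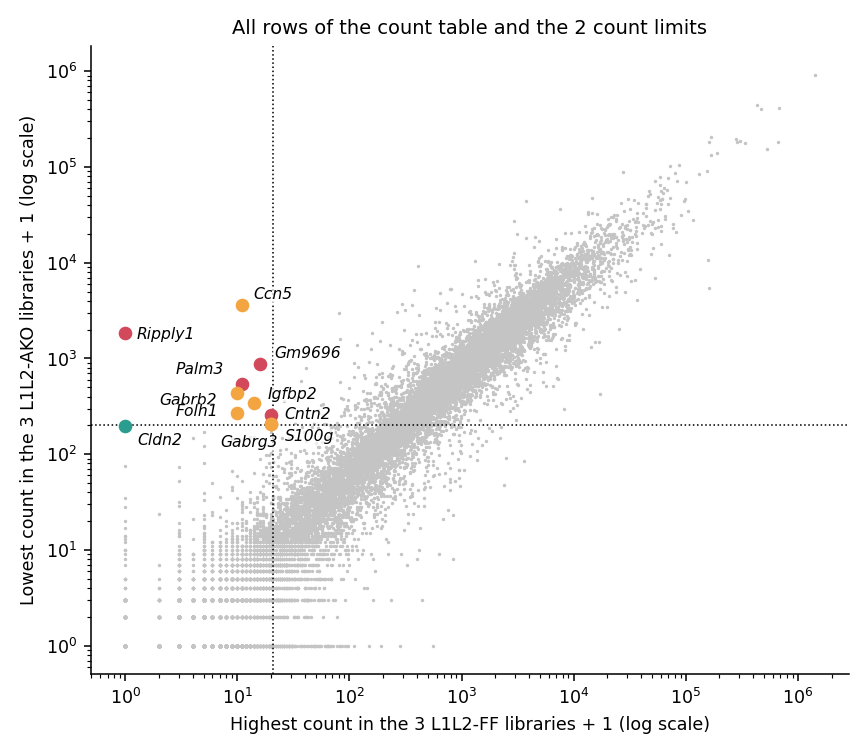
Every row of the count table by its highest L1L2-FF count (x axis) and its lowest L1L2-AKO count (y axis), each plus 1 on a log scale, with dotted lines at the 2 limits; red points are the 4 genes, orange points the other 6 rows that met the limits and the green point *Cldn2*. *Ripply1* and *Ccn5* stand farthest from the band of all other genes, and *Cldn2* falls 2 counts short of the L1L2-AKO limit.

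The L1L2-AKO libraries did not carry the 4 genes equally. The CPM in L1L2-AKO replicate 1, divided by the mean of replicates 2 and 3, was 0.209 for *Ripply1*, 0.498 for *Palm3*, 0.156 for *Cntn2* and 0.371 for *Gm9696*. Over the 10433 tested genes with a mean L1L2-AKO count of at least 200, that ratio had a median of 0.990 and ran from 0.674 at the 5th to 1.41 at the 95th percentile, and only 0.125%, 1.67%, 0.0863% and 0.661% of those genes had a lower ratio than *Ripply1*, *Palm3*, *Cntn2* and *Gm9696*. Replicates 2 and 3 were alike by comparison, with replicate 3 at 1.23, 1.14, 0.889 and 1.01 times replicate 2 for the 4 genes. The coefficient of variation among the L1L2-AKO libraries was 63.6% for *Ripply1*, 35.7% for *Palm3*, 68.3% for *Cntn2* and 46.0% for *Gm9696*, against a median of 9.57%.

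The low level in L1L2-AKO replicate 1 was not a feature of every gene that met the limits. *Ccn5*, *S100g* and *Igfbp2* had ratios of 0.193, 0.343 and 0.440, while *Gabrb2*, *Gabrg3* and *Folh1* were at 1.14, 1.29 and 1.41. *Lats1* itself was at 0.953 and *Lats2* at 0.734. Of the 12 genes of a 22-gene YAP/TAZ target signature that were higher in L1L2-AKO, 11 had a ratio under 1 and 7 were under the 5th percentile, from 0.279 for *Igfbp3* (5721, 19538 and 17735 counts in L1L2-AKO) to 1.07 for *Ajuba*. The summed CPM of marker genes had ratios of 1.06 for adipocytes, 0.962 for macrophages, 1.60 for endothelial cells and 0.475 for Schwann cells. What part these differences between the pools have in the level of the 4 genes was not tested. Every L1L2-AKO library, replicate 1 included, was above every L1L2-FF library for all 4 genes, as the limits require.

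**Figure D3:**
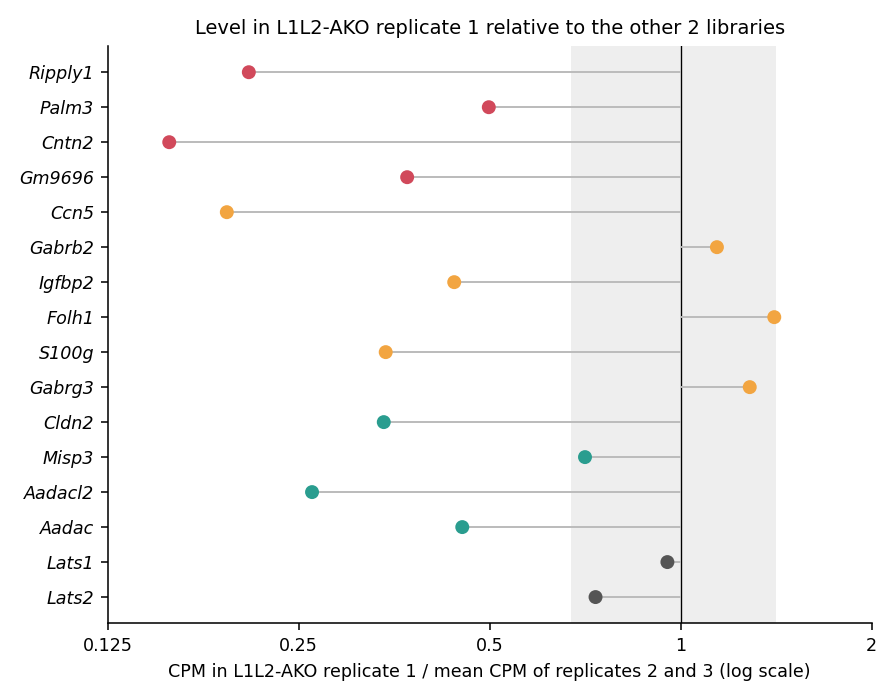
CPM in L1L2-AKO replicate 1 divided by the mean of L1L2-AKO replicates 2 and 3 (x axis, log scale) for the 4 genes (red), the other rows that met the limits (orange), 4 neighbouring genes (green) and the floxed genes (grey); the shaded band spans the 5th to the 95th percentile of 10433 genes. All 4 genes lie left of the band, at 0.156 to 0.498, whereas *Gabrb2*, *Gabrg3* and *Folh1* lie right of 1.

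Genes near the 4 were read next, because they were picked by position. The annotation has 34 genes within 100 kb of one of the 4, of which 31 are in the count table and 21 passed the filter on low counts. Of those 21, 6 were higher in L1L2-AKO and 0 lower (edgeR, adjusted p under 0.05), which is 28.6% higher against 9.28% of all 15674 genes tested. Of the 6, *Cldn2*, *Misp3*, *Aadacl2* and *Aadac* passed the filter only through L1L2-AKO, so that they could hardly have been tested without being higher. The comparison of shares therefore gives no support by itself, and the adjusted p-values of these genes below are given as description only. With no filter 6 of 30 neighbours were called, all of them higher, against 1496 higher of all 24018 genes tested that way. Lower calls made up 7.18% of all 15674 genes tested with the filter. The libraries of the 2 genotypes did not overlap, with L1L2-AKO higher, for 11 of the 21, against 18.0% of all genes tested. The median log2 fold change of the neighbours was 0.33, against -0.02 over all genes. The overlap count and this median include *Cldn2*, *Misp3*, *Aadacl2* and *Aadac* as well, so neither gives support by itself. Without L1L2-AKO replicate 2, 3 of 23 neighbours were called, all higher, against 814 higher of all 16078 genes tested. Without L1L2-AKO replicate 3 it was again 3 of 23, against 844 of 16084.

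*Cldn2*, which encodes the pore-forming tight junction protein claudin 2, starts 18.5 kb from the start of *Ripply1* on the opposite strand. It had 0 counts in each L1L2-FF library and 198, 514 and 538 in L1L2-AKO, or 13.7 ± 6.79 CPM (SD, n = 3), at least 144-fold higher at a floor of 3 counts per library (edgeR adjusted p = 0.0014, and at most 0.0079 with any single library left out). Like *Ripply1*, it was undetected in all controls and lowest in L1L2-AKO replicate 1. On the other side, *Tbc1d8b*, a gene expressed in both genotypes, rose by a log2 fold change of 0.52 (edgeR adjusted p = 0.0357), a call lost without any of 5 of the 6 libraries. *Morc4*, 39.3 kb away, did not pass the test (log2 fold change 0.10).

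*Misp3* starts 9.30 kb from the start of *Palm3* and is transcribed away from it. It had 4, 2 and 1 counts in L1L2-FF and 80, 103 and 102 in L1L2-AKO, or 0.0739 ± 0.0489 and 3.08 ± 0.596 CPM (SD, n = 3), a 41.7-fold difference (log2 fold change 5.31, SE 0.459, edgeR adjusted p = 0.0005, at most 0.0042 with any library left out). The row of the microRNA gene *Mir1199*, which lies within the same stretch, had 0 counts in each L1L2-FF library and 9, 14 and 18 in L1L2-AKO and was not tested; as the libraries were made from polyadenylated RNA, these reads need not come from the mature microRNA. *Palm3* overlaps the end of *Il27ra*, a cytokine receptor gene on the opposite strand, which had 80, 107 and 74 counts in L1L2-FF and 110, 212 and 160 in L1L2-AKO and did not pass the test (edgeR adjusted p = 0.0725). Without a stated strand setting, reads in the shared end cannot be assigned to either gene. None of the other 10 tested neighbours of *Palm3* passed the test.

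*Gm9696* had protein-coding relatives of *Aadac* downstream that were also higher in L1L2-AKO, at far lower levels. *Aadacl2*, 33.1 kb downstream on the same strand, had 0 counts in each L1L2-FF library and 11, 28 and 47 in L1L2-AKO, at least 10.03-fold higher at the floor (edgeR adjusted p = 0.0131, at most 0.0460 with any library left out). *Aadac*, an esterase of the endoplasmic reticulum best known from liver and intestine, lies 52.1 kb downstream and had 2, 4 and 0 counts in L1L2-FF and 16, 32 and 32 in L1L2-AKO (13.9-fold, edgeR adjusted p = 0.0130, with a largest adjusted p of 0.0614 and the call lost without any of 3 libraries). Upstream, *Aadacl2fm3* had 10, 22 and 20 counts in L1L2-FF and 9, 6 and 2 in L1L2-AKO and was not tested. *Nceh1*, another relative of *Aadac*, chosen after its values were seen, had 111, 151 and 110 counts in L1L2-FF and 235, 235 and 171 in L1L2-AKO, and *Aadacl2fm2* and *Aadacl3*, looked at in the same way, had 0 counts in all 6 libraries. *Aadacl2* and *Aadac* shared no stretch of 50 bases with *Gm9696*.

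Around *Cntn2*, the neighbours barely moved. *Dstyk* rose by a log2 fold change of 0.41 (edgeR adjusted p = 0.0429), a call lost without any of 5 libraries. *Nfasc*, which encodes neurofascin, another axonal adhesion protein, had 51, 152 and 90 counts in L1L2-FF and 66, 89 and 82 in L1L2-AKO and did not pass the test, nor did *Rbbp5* and *Tmem81*, whose ends lie within 3.77 kb of *Cntn2*. *Cntn2* was the one of the 4 without a tested neighbour that was at or near 0 in L1L2-FF and higher in L1L2-AKO. *6030442K20Rik*, a neighbour that was not tested, had 6, 8 and 4 counts in L1L2-FF and 10, 12 and 8 in L1L2-AKO.

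**Figure D4:**
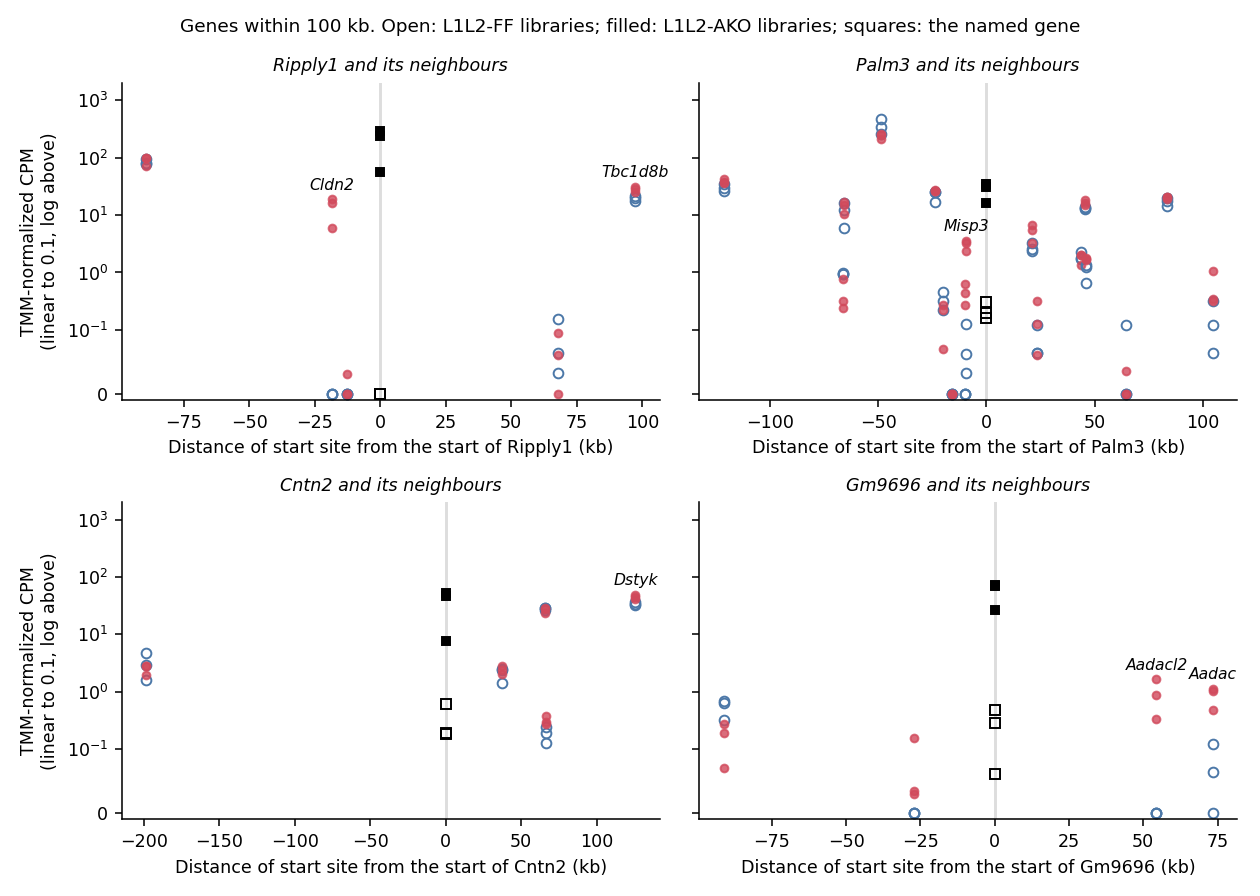
CPM per library (y axis, linear up to 0.1 and logarithmic above) of genes within 100 kb of the ends of each of the 4 genes, by the distance of their start site along the direction of transcription (x axis, kb; long genes start farther away); open circles are L1L2-FF and filled circles L1L2-AKO libraries, squares are the gene itself, and names mark the 6 neighbours higher in L1L2-AKO. *Cldn2*, *Misp3* and *Aadacl2* go from at or near 0 to well above it, while *Tbc1d8b* and *Dstyk* shift slightly.

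None of the paralogs in the table met the count limits. *Ripply2* had 0 counts in all 6 libraries. *Ripply3* had 234, 215 and 188 counts in L1L2-FF and 286, 156 and 124 in L1L2-AKO and did not pass the test (log2 fold change -0.17, edgeR adjusted p = 0.732). Among the paralemmins, *Palmd* rose from 6354, 9038 and 5889 counts to 11744, 12131 and 13367 (log2 fold change 0.84, SE 0.186, edgeR adjusted p = 0.0193, lost without any of 3 libraries), whereas *Palm* had 3150, 4041 and 2422 against 2269, 2204 and 2348 and did not pass (log2 fold change -0.46, edgeR adjusted p = 0.117). Both of these paralemmins were well expressed in controls, where *Palm3* was near the floor. *Pakap*, a paralemmin row looked at after its values were seen, had 15 to 34 counts in L1L2-FF and 26 to 36 in L1L2-AKO. Of the contactins, *Cntn1* had 35, 34 and 29 counts in L1L2-FF and 20, 21 and 6 in L1L2-AKO and did not pass the test (edgeR adjusted p = 0.151), and *Cntn3*, *Cntn4*, *Cntn5* and *Cntn6* had at most 14 counts in any library.

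**Figure D5:**
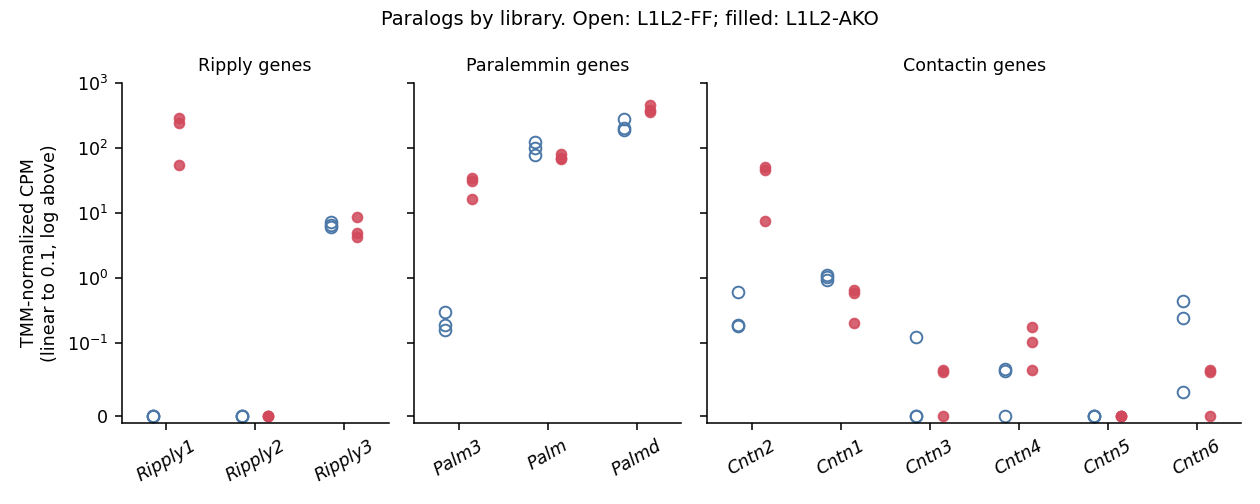
CPM per library (y axis, linear up to 0.1 and logarithmic above) of the Ripply, paralemmin and contactin genes; open circles are L1L2-FF and filled circles L1L2-AKO libraries. *Ripply1*, *Palm3* and *Cntn2* are the members with a wide gap between the genotypes, *Ripply2* and *Cntn5* are at 0 throughout, and *Palm* and *Palmd* are high in both.

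Of the genes known with *Ripply1* from somites, some were expressed in these adipocytes and others had few or no reads. Of 24 genes for somite segmentation and T-box factors, 12 were tested, 1 was higher and 0 were lower, with a median log2 fold change of -0.23. That is no more than the share of all genes tested, 9.28% higher and 7.18% lower. Under 10 counts in every library were found for 10 of the 24, while *Meox2*, *Lfng* and *Tbx18* were expressed in both genotypes, at 76.7, 29.8 and 18.9 CPM in L1L2-FF, and did not pass the test. *Tbx6*, the T-box factor of the presomitic mesoderm, had 48, 49 and 19 counts in L1L2-FF and 38, 29 and 29 in L1L2-AKO, and *Mesp2*, which acts upstream of the Ripply genes at the segment border, had at most 10 counts in any library. The gene that passed was *Tbx15*, a T-box factor of the mesenchyme and adipose tissue, with 758, 774 and 773 counts against 1031, 1097 and 1193 (log2 fold change 0.56, SE 0.132, edgeR adjusted p = 0.0255, lost without any of 3 libraries). Of 7 Groucho/TLE genes, 6 were tested, 3 were higher and 0 lower, against 9.28% and 7.18% of all genes tested, with a median log2 fold change of 0.61. *Tle1* rose from 1398, 1148 and 1137 counts to 2244, 1929 and 2273 (log2 fold change 0.83, edgeR adjusted p = 0.0067), and *Tle6* from 38, 58 and 40 to 205, 237 and 290 (log2 fold change 2.47, edgeR adjusted p = 0.0012). *Tle2* rose by 1.12 (edgeR adjusted p = 0.0416), a call lost without any of 4 libraries, and *Tle3*, *Tle4* and *Tle5* did not pass.

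Of 22 contactins and axonal membrane partners, 12 were tested, 1 was higher and 3 were lower, with a median log2 fold change of -0.59. Over all genes tested 9.28% were higher and 7.18% lower, so the share that was higher is near the background. *Nrcam*, a cell adhesion protein of the L1 family, rose from 57, 125 and 72 counts to 185, 439 and 573 (log2 fold change 2.30, SE 0.477, edgeR adjusted p = 0.0150, lost without any of 3 libraries). Its ratio of replicate 1 to the other L1L2-AKO libraries was 0.329. *Cntnap1*, the axonal partner of contactin 1, fell from 591, 471 and 706 counts to 335, 223 and 209 (log2 fold change -1.20, edgeR adjusted p = 0.0088, held with each library left out). *Kcna1*, a potassium channel subunit clustered beside the node with the help of contactin 2, fell by 1.94 on the log2 scale (edgeR adjusted p = 0.0443) and *Ncam1* by 1.38 (edgeR adjusted p = 0.0490), both calls lost without any of 5 libraries. *Cntnap2*, which encodes the main partner of contactin 2, had at most 7 counts in any library. *Chl1*, a relative of *Nrcam*, had 71, 116 and 88 counts in L1L2-FF and 40, 687 and 899 in L1L2-AKO, so that it was high in replicates 2 and 3 only and did not pass the test (edgeR adjusted p = 0.0812).

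Schwann cell markers, from one of the known sites of *Cntn2*, were lower in L1L2-AKO, where *Cntn2* was higher, but within L1L2-AKO both had the same order of libraries. Of 8 Schwann cell markers, 0 were higher and 5 lower in L1L2-AKO, against 9.28% and 7.18% of all genes tested, and their summed level was 476 to 1229 CPM in L1L2-FF and 151 to 383 in L1L2-AKO. In L1L2-AKO replicates 1, 2 and 3 the sum was 151, 383 and 252 CPM and *Cntn2* was at 7.63, 51.7 and 46.0 CPM, so that replicate 1 was lowest and replicate 2 highest for both. The order differed in L1L2-FF, with sums of 476, 1229 and 775 CPM and *Cntn2*, near the floor, at 0.192, 0.186 and 0.612 CPM. Of 7 neuronal markers, 4 were tested and 1, *Tubb3* (16, 12 and 9 counts against 23, 65 and 48), was higher, a call lost without any of 5 libraries, with summed levels of 3.77 to 5.14 CPM in L1L2-FF and 4.64 to 7.72 in L1L2-AKO, and *Syt1* had 2 counts in a single library and 0 in the rest. The part of Schwann cells and neurons in the *Cntn2* level was not tested beyond these values.

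The floated fraction was checked for what else it held. The 8 adipocyte markers summed to 13911 to 17144 CPM in L1L2-FF and 10431 to 12607 in L1L2-AKO, with 0 higher and 3 lower (*Adipoq*, *Pparg* and *Retn*). All 8 macrophage markers were higher in L1L2-AKO, with a sum of 217 to 422 CPM in L1L2-FF and 805 to 912 in L1L2-AKO. Endothelial markers summed to 1769 to 2372 and 1030 to 2258 CPM, with 0 of 6 called, while of 6 mural markers 1 was higher and 2 were lower and of 6 progenitor markers 1 was lower. Skeletal muscle markers summed to 11.3 to 18.5 and 2.76 to 9.08 CPM, epithelial markers to 3.67 to 7.93 and 1.93 to 2.16, and mesothelial markers to 3.89 to 4.73 and 3.02 to 4.43. Of 4 mesothelial markers 2 were tested, and *Wt1* alone was higher, from 0 counts in each L1L2-FF library to 27, 41 and 50. *Wt1* passed the filter on low counts only through L1L2-AKO, so it could hardly have been tested without being higher. Of these lists, only the macrophage list had sums that were higher in L1L2-AKO without overlap, as the 4 genes did, and its part in their level was not tested. Its ratio of replicate 1 to the other L1L2-AKO libraries was 0.962, beside 0.156 to 0.498 for the 4 genes and 0.475 for the Schwann list.

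Known targets of YAP and TAZ, which act downstream of LATS, were read beside the 4 genes. Of the 22 signature genes, a list taken up with earlier results of these data known, 21 were tested, 12 were higher, *Lats2* among them, and 1, *Nt5e*, was lower, against 9.28% and 7.18% of all genes tested, with a median log2 fold change of 1.27. *Igfbp3* rose from 782, 1402 and 832 counts to 5721, 19538 and 17735 (log2 fold change 3.89, SE 0.502, edgeR adjusted p = 0.0022), and *Ankrd1* from 1, 0 and 1 to 24, 42 and 23, at least 10.03-fold. *Ankrd1*, which is among the 12, passed the filter on low counts only through L1L2-AKO, so it could hardly have been tested without being higher. *Vgll3*, a TEAD cofactor, rose from 66, 157 and 95 counts to 1847, 2608 and 3088 (24.6-fold), and was the largest change among 10 YAP/TAZ-TEAD factors, of which 8 were tested and 3 were higher and 0 lower in L1L2-AKO, beside the same background. *Tead1* rose by a log2 fold change of 1.16 (edgeR adjusted p = 0.0029), and *Yap1* and *Wwtr1* (TAZ) did not pass the test. The 24.6-fold difference of *Vgll3* compares with 106-fold for *Cntn2*, 124-fold for *Palm3* and 202-fold for *Gm9696*, which were chosen for the size of theirs.

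The genes whose level across the 6 libraries followed each of the 4 most closely were found by Pearson's r of log2 CPM. For *Ripply1* they were its neighbour *Cldn2*, *Vegfc* and *Ccn5*, all with r of at least 0.9995, for *Palm3* *Piezo2*, *Prag1* and *Angpt4*, for *Cntn2* *Agfg1*, *Alpl* and *Kng2*, and for *Gm9696* *Npl*, *Syt13* and *Kdelr3*. *Vegfc*, a lymphatic growth factor, had 115, 113 and 103 counts in L1L2-FF and 1383, 2036 and 2196 in L1L2-AKO. *Syt13*, a synaptotagmin, had 2, 0 and 3 counts in L1L2-FF and 145, 443 and 469 in L1L2-AKO. *Kng2*, a kininogen gene, had 7, 6 and 19 counts in L1L2-FF and 102, 281 and 238 in L1L2-AKO, with its highest L1L2-FF and lowest L1L2-AKO library the same as for *Cntn2*. Among the 4 genes themselves r ran from 0.969 to 0.997. With 6 libraries in 2 groups, any gene that separates the genotypes has a high r, so these values rank likeness and carry no p.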

How the data were processed

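Floated scWAT adipocytes were measured by RNA-seq in 6 libraries, grouped by the submitters' labels into L1L2-FF and L1L2-AKO. The authors captured mRNA with oligo(dT), sequenced paired ends, aligned them to mm10 with HISAT2 2.1.0 used StringTie 1.3.5 and deposited a table of whole-number counts per gene symbol, not normalized. The annotation, counting program and strand setting are not given in the sources used here. Even low counts were in excess of odd ones (8338 values of 2 against 4447 of 1 over all libraries), so a read pair may often have been counted as 2. The floor of 3 counts covers counting error only. Labels give a replicate number but nothing further on how the pools of mice were made up, so p-values measure the spread between these pools.

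Levels are CPM with TMM factors. Genes passing filterByExpr (15674; minimum count 10, minimum total 15) were fitted with edgeR 4.0.16 in R 4.3.3 (quasi-likelihood, two-sided, Benjamini-Hochberg adjustment over all tested genes, threshold 0.05). The fit was tested on simulated counts with a single dispersion and fold changes far below those of the 4 genes. Changes were placed only in genes well above the floor, so that test does not cover calls of near-silent genes. Alternatives were DESeq2 1.42.0 size factors and Wald test, library size alone, upper quartile, no filter, limma-voom (limma 3.58.1), a replicate block, other limits and each library left out. Gene symbols were matched to GENCODE M21 (36961 by symbol, 385 by synonym, 38 not), and promoters came from RefSeq GRCm38.p6. The members and lists were chosen with earlier results of these data known. Named were the 4 genes, all other rows within the limits, the 3 rows just outside each, genes within 100 kb, paralogs, up to 4 list members past the threshold, the 3 genes of most similar profile, *Lats1*, *Lats2* and defining markers. Of the genes drawn by that rule, 1 marker is not reported here. Correlations used log2 CPM with a prior count of 2.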

Additional observations from a re-analysis of the deposited data

How the results depend on the processing

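The log2 differences of the 4 genes, whose sign the count limits fix, ran from 10.82 to 12.02 for *Ripply1* apart from 13.27 with a prior count of 0.5, 6.34 to 6.89 for *Palm3*, 5.75 to 7.12 for *Cntn2* and 6.86 to 7.94 for *Gm9696*. Other limits for the L1L2-FF and L1L2-AKO counts changed how many genes qualified, by construction: 10 and 200 gave 5 genes (2 of the 4), 20 and 100 gave 21, 20 and 500 gave 4 (3 of the 4, *Cntn2* falling out) and 50 and 200 gave 17. With the limits exchanged the numbers were 0, 4 and 0 for the first 3 of these. With single libraries left out, 10 to 16 genes qualified, and 2 to 3 with the limits exchanged. The genes called in the whole table numbered 2580, and 1281 to 2845 with single libraries left out (1290 with L1L2-FF replicate 1 removed, and 1281 and 1374 with L1L2-AKO replicates 2 and 3 removed). Leaving out single libraries also moved the calls to 3 to 8 of the neighbours, 0 to 2 of the somite genes, 0 to 2 of the paralemmins, 1 to 5 of the contactins and partners, 9 to 15 of the signature genes, 2 to 3 of the TLE genes and 2 to 3 of the YAP/TAZ-TEAD factors. Without a filter on low counts 7 contactins and partners were called, and DESeq2's Wald test called 2 somite genes and 5 YAP/TAZ-TEAD factors. The cause of these moves was not tested.

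Replicate numbers are shared between the genotypes, but same-numbered libraries did not deviate together throughout (r of 0.188, 0.255 and -0.0544). With 3 libraries per genotype, these values cannot tell whether same-numbered libraries share more than a number. With the number as a replicate block 2514 genes were called, 2218 of them among the 2580.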

Other observations

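The mirrored limits picked out a gene for a membrane protein of the claudin superfamily and a predicted gene. *Gsg1l*, which encodes an auxiliary subunit of AMPA-type glutamate receptors, had 246, 405 and 443 counts in L1L2-FF and 2, 11 and 7 in L1L2-AKO. *Gm454* had 402, 323 and 204 counts in L1L2-FF and 7, 13 and 11 in L1L2-AKO. Both were chosen after these counts were seen, so no test is given.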
